A study of Mus musculus with 2 samples.

Results

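The signalling lymphocytic activation molecule (SLAM) receptors and their adaptors were followed as 7 genes of the 31053 in the deposited count matrices, taken by symbol and whatever their values. They are 4 receptors, Slamf6, Slamf7, Cd48 and Cd2, and 3 adaptors of the SLAM-associated protein (SAP) family, Sh2d1a, Sh2d1b1 and Sh2d1b2. The data are 2 single-cell RNA libraries of natural killer (NK) cells sorted from mouse brain. The wildtype library came from untreated C57BL/6 females aged 8 months, and the 3XTg-AD library from untreated 3XTg-AD females of the same age. 3XTg-AD mice model Alzheimer's disease with human APP and MAPT transgenes driven in neurons by the Thy1.2 promoter. The labels give neither the number of mice in each library, nor the background strain of the 3XTg-AD animals, nor the antibodies of the sort. With 1 library per genotype, no difference between genotypes has a replicate check: ratios between the libraries carry intervals for counting error only, and genotype and library cannot be told apart.

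SLAM receptors are immunoglobulin-family proteins on lymphocytes, and most of them bind the same receptor on a neighbouring cell. Cd48 differs in being held in the membrane by a lipid anchor, and it is the ligand of both Cd244 and Cd2. The cytoplasmic tails of several SLAM receptors carry tyrosine motifs that SAP adaptors bind through an SH2 domain. Cd2 is not counted among those receptors here. Sh2d1a encodes SAP, which brings the kinase Fyn to the receptor, while Sh2d1b1 and Sh2d1b2 encode EAT-2 and its close copy, which lack that Fyn contact. Without an adaptor the same motifs can recruit inhibitory phosphatases, so adaptor supply is known to set whether NK cells are activated or held back through these receptors.

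The wildtype library held 1709 barcodes and the 3XTg-AD library 1695, with median depths of 2930 and 2846 unique molecular identifiers (UMIs, one per captured RNA molecule). NK barcodes were those with at least 2 UMIs of 5 NK receptor genes that passed no gate for another cell type. There were 1492 in the wildtype and 1512 in the 3XTg-AD library. Barcodes with at least 3 summed UMIs of Itga1, Cxcr6, Inpp4b, Gzmc and Tnfsf10 were called ILC1-like, after the group 1 innate lymphoid cells that these genes mark. They numbered 93 and 73. The T cell gate left out 29 wildtype and 28 3XTg-AD barcodes, and 18 and 6 had too few UMIs of the NK receptor genes. Ncr1, the NKp46 receptor, stood at 1632 and 2207 counts per 1000000 UMIs (CPM) in NK barcodes of the wildtype and 3XTg-AD libraries. The T cell gene Cd3e gave 1 and 0 UMIs there. Both genes were used in the gates, so these levels follow from the selection and do not test the labelled cell type. ILC1 genes outside the limit summed to 1104 and 1062 CPM in ILC1-like barcodes and 231 and 164 CPM in NK barcodes. A list of 9 NK genes against ILC1, Eomes among them, summed to 5245 and 2301 CPM in ILC1-like and 24061 and 24392 CPM in NK barcodes. S1pr5, a gene of that list, was at 13.2 and 19.4 CPM against 371 and 442 CPM. Eomes itself, which typical ILC1s lack, was nearly as high in ILC1-like (194 and 197 CPM) as in NK barcodes (218 and 239 CPM). The class is therefore held to its limit and not read as a pure cell type. The limit was counted without regard to depth, and ILC1-like barcodes were deeper, with medians of 5312 and 5514 UMIs against 2858 and 2782.5 for NK barcodes. The limit also cuts a continuous score: 38 wildtype and 29 3XTg-AD barcodes had exactly 2 summed UMIs and 21 and 23 had exactly 3. The libraries differed in the makeup of their NK barcodes. A cluster led by the heat-shock genes Stip1, Dnaja1 and Hsp90aa1 held 67 wildtype and 480 3XTg-AD barcodes, and a cluster led by Gzmb, Gadd45g and Socs1 held 283 and 15. The 2 libraries shared 1 barcode sequence.

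All 7 genes were detected in NK barcodes of both libraries. Cd48 gave 1717 UMIs (372 CPM, exact Poisson 95% interval 355 to 390) in the wildtype and 1579 UMIs (345 CPM, 328 to 363) in the 3XTg-AD library. Cd2, the receptor that Cd48 engages on T and NK cells, gave 1365 UMIs (296 CPM) and 1310 UMIs (286 CPM). Slamf7, a receptor that binds itself and signals through EAT-2 in NK cells, gave 704 UMIs (153 CPM) and 661 UMIs (145 CPM). Slamf6, also called Ly108, was sparse, with 40 UMIs (8.68 CPM, 6.20 to 11.8) and 13 UMIs (2.84 CPM, 1.51 to 4.86). For 3 of the 4 receptors the libraries therefore lay close together, while the Slamf6 intervals did not overlap. How often such intervals overlap was not counted over all genes, so overlap does not set any of the 7 genes apart.

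Among the adaptors, Sh2d1a gave 585 UMIs (127 CPM, 117 to 138) in wildtype and 528 UMIs (115 CPM, 106 to 126) in 3XTg-AD NK barcodes. Sh2d1b1 gave 203 UMIs (44.0 CPM) and 168 UMIs (36.7 CPM). Sh2d1b2 gave 40 UMIs (8.68 CPM) and 28 UMIs (6.12 CPM). The intervals of the libraries overlapped for each of the 3 adaptors. The counts come from the 5′ ends of transcripts and are not scaled by length, so no order between genes is read from them.

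To compare shares of barcodes at equal depth, each barcode was thinned at random to 1400 UMIs. NK barcodes below that depth, 122 in the wildtype and 85 in the 3XTg-AD library, were set aside. A Cd48 UMI was then present in 42.3% of 1370 wildtype and 37.9% of 1427 3XTg-AD NK barcodes (61.7% and 58.5% before thinning). The Cd2 share was 33.1% and 30.6% (52.5% and 53.2% before thinning). The Slamf7 share was 18.2% and 17.8% (32.0% and 31.8% before thinning), and the Sh2d1a share was 15.9% and 14.2% (30.2% and 26.1% before thinning). Sh2d1b1 was seen in 5.77% and 5.33% of barcodes, Sh2d1b2 in 1.46% and 0.841%, and Slamf6 in 1.61% and 0.561%. Shares this low mean that most NK barcodes without a UMI of these genes cannot be called negative. In barcodes gated out as microglia, which should lack most lymphocyte genes but also carried NK genes, shares at the same depth were 20% of 10 and 26.8% of 41 for Cd48. Cd2 there was at 20% and 19.5%, Slamf7 at 10.0% and 2.44%, Sh2d1a at 10.0% and 12.2% and Sh2d1b1 at 10.0% and 2.44%, with median depths of 4009 and 3857.5 UMIs before thinning. Slamf6 and Sh2d1b2 were at 0 of 10 and 0 of 41 in that gate, which allows shares of up to 30% and 7.32%. The interval of the gate lay apart from that of NK barcodes only for Slamf7 in 3XTg-AD. Ncr1 was seen in 50% and 58.5% of the thinned barcodes of that gate, so it held NK transcripts and is not a clean background. With 10 and 41 barcodes of this kind, the comparison cannot show whether the NK shares stand above background.

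Of the NK barcodes at 1400 UMIs, 24.5% in the wildtype and 28.2% in the 3XTg-AD library had no UMI of any of the 7 genes. A single gene of the 7 was seen in 41.6% and 43.2%, and 2 genes in 25.6% and 22.7%. At least 4 genes together were seen in 10 wildtype and 13 3XTg-AD barcodes. For the 10 pairs among the 5 genes above 100 UMIs, the share of barcodes with the second gene was compared between barcodes with and without the first. In all 20 comparisons, 10 pairs in each library, the exact binomial intervals overlapped, and the share was higher beside the first gene in 9. Pairs of other genes were not counted, so neither count sets these pairs apart. The widest contrast for Slamf7 and Cd48 was in the wildtype library, where Cd48 was seen in 49.0% of Slamf7-positive barcodes (42.6% to 55.4%) and 40.9% of Slamf7-negative barcodes (38.0% to 43.8%). In 3XTg-AD it was 40.2% against 37.4%. Sh2d1a was seen in 11.6% of Slamf7-positive and 16.9% of Slamf7-negative wildtype barcodes, and in 15.4% and 14.0% in 3XTg-AD.

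In the mm10 (GRCm38) build, by GENCODE M21 positions, 5 of the 7 genes lie on chromosome 1 within 1720 kb. Slamf7 (chr1:171632403-171653035, minus strand), Cd48 (chr1:171682009-171705258, plus strand) and Slamf6 (chr1:171917515-171953170, plus strand) fall within 321 kb. Sh2d1b2 (chr1:170232749-170253608) and Sh2d1b1 (chr1:170277320-170286769) lie 23.7 kb apart, both on the plus strand. Cd2 is on chromosome 3 (chr3:101275899-101287939, minus strand) and Sh2d1a on the X chromosome (chrX:42502453-42529330, plus strand). Sh2d1a overlaps Tenm1 on the other strand, and Tenm1 had 0 UMIs in both libraries. The antisense genes Gm37787 over Slamf7 and Gm37065 over Slamf6 each had 0 UMIs in the wildtype and 1 in the 3XTg-AD library.

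The EAT-2 genes are close copies of each other, which bears on how their reads can be assigned. The longest annotated transcripts of Sh2d1b1 and Sh2d1b2 were identical at 91.1% of 2433 aligned bases. Of the 75-base words of each gene's transcripts, 9.84% in Sh2d1b1 and 9.56% in Sh2d1b2 also occur in the other gene, rising to 31.9% and 26.2% of the words in the first 500 bases, where a 5′ library reads. The other 5 genes had no such word in common with another gene. The split of UMIs between Sh2d1b1 and Sh2d1b2 is therefore uncertain. The likeness extends upstream of the genes, as the aligned stretches before each start show, with 110 of 124 aligned bases identical (88.7%). They are from RefSeq on GRCm38.p6, plus strand, for Sh2d1b1 at chr1:170277129-170277253 and for Sh2d1b2 at chr1:170232621-170232748, and capitals mark bases that differ from the partner or have none there.
Sh2d1b1: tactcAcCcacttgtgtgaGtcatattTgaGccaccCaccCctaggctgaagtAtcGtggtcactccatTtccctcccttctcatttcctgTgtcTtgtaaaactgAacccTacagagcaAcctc
Sh2d1b2: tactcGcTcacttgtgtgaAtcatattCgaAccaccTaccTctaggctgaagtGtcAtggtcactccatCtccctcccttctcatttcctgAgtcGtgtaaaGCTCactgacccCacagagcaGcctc

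A search of the 250 bases upstream of the RefSeq start, on both strands, covered 5 of the 7 genes. The Slamf6 window could not be matched to the start of an annotated transcript, so its orientation is unchecked. The core bound by T-box factors such as Eomes and Tbx21, GTGTGA, lay in 4 of the 5 windows and in 12.3% of all 32851 windows of that length. It was at -237 in Sh2d1b2, -176 in Sh2d1b1, -137 in Slamf7 and -72 in Cd48. The Sh2d1b2 and Sh2d1b1 matches are at the same place in the aligned stretches above, so they are not separate matches. The AP-1 motif, spelled TGAGTCA, lay at -207 and -173 in the Sh2d1b1 window and at -42 in the Slamf7 window, and in 4.46% of all windows. Its copy at -173 in Sh2d1b1 overlaps the T-box core there. The RUNX core, spelled TGTGGT, lay in 3 windows, those of Sh2d1b2 (at -112), Sh2d1b1 and Cd48, and in 14.0% of all windows. The RefSeq start of Sh2d1b2 lies downstream of its GENCODE start, and the last 122 bases of its window, with that RUNX match, are inside the GENCODE gene. The RefSeq start of Slamf7 also lies downstream of its GENCODE start, at 171653035 on the minus strand. The whole Slamf7 window, with its T-box and AP-1 matches, is therefore inside the GENCODE gene. An interferon response motif, a pair of GAAA copies with 2 bases of any kind between them, lay in none of the 5 windows and in 2.98% of all windows. A match describes letters only, and no binding was measured. Bases before the RefSeq start are given for Slamf7 (chr1:171649008-171649249, minus strand) and Cd48 (chr1:171681742-171681991, plus strand), with the T-box core in capitals. These are the 2 receptors whose levels differed most clearly between NK and ILC1-like barcodes.
Slamf7: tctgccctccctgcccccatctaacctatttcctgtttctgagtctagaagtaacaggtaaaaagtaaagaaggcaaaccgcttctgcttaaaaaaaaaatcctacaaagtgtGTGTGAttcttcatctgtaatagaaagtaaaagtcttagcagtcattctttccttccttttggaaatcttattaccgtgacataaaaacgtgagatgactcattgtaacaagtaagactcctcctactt
Cd48: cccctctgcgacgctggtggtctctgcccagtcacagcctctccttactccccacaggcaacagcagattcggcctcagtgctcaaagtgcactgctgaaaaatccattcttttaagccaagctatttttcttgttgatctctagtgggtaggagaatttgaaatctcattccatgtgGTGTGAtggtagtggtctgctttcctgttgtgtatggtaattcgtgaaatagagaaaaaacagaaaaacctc

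Cd48, Slamf7 and Cd2 had lower summed levels in ILC1-like than in NK barcodes. Cd48 was at 177 CPM (143 to 217) in wildtype and 109 CPM (79.8 to 146) in 3XTg-AD ILC1-like barcodes, against 372 and 345 CPM in NK barcodes. Both ILC1-like values lay far below both NK values. Summed counts per class and library were compared with edgeR's quasi-likelihood test with library as a block, which called 18.7% of 7410 genes at an adjusted p under 0.05 (9.65% higher and 9.1% lower). Of the 5 SLAM and SAP genes with enough UMIs for the fit, 3 were called, all lower, and their median log2 ratio was -0.42 against -0.01 over all genes. With library as a block, these p-values set the ratio between classes against its disagreement between the 2 libraries, which also differ in genotype. That disagreement rests on few sums and is moderated by a spread borrowed across genes, so small p-values do not stand for many replicates. Fewer transcripts per cell and fewer cells with the transcript cannot be told apart in the sums.

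The Cd48 log2 ratio of ILC1-like over NK barcodes was -1.12 (SE 0.15, edgeR adjusted p = 5.08e-12). Within the libraries the ratio was 0.476 (exact 95% interval 0.383 to 0.586) in wildtype and 0.317 (0.230 to 0.426) in 3XTg-AD. Under 13 other settings the adjusted p ran from 6.24e-16 to 0.00762, so the call was kept in 13 of 13. Thinned to 1400 UMIs, Cd48 was seen in 18.9% of 90 wildtype and 12.3% of 73 3XTg-AD ILC1-like barcodes, which is below the NK shares in both libraries.

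Slamf7 was at 90.6 CPM (48 UMIs) in wildtype and 65.6 CPM (27 UMIs) in 3XTg-AD ILC1-like barcodes, against 153 and 145 CPM in NK barcodes. Its log2 ratio was -0.72 (SE 0.18, edgeR adjusted p = 0.000493), with within-library ratios of 0.593 (0.433 to 0.795) and 0.454 (0.297 to 0.666). The call held in 9 of 13 settings (adjusted p from 5.99e-06 to 0.812), with log2 ratios from -0.91 to -0.25. It was lost with the limit at 4 summed UMIs, with the limit counted after thinning, with DESeq2 and with 5 classes in the fit. Cd2 was at 151 CPM (80 UMIs) in wildtype and 238 CPM (98 UMIs) in 3XTg-AD ILC1-like barcodes, against 296 and 286 CPM in NK barcodes. Its log2 ratio was -0.42 (SE 0.14, edgeR adjusted p = 0.0226), and the within-library ratio was 0.510 (0.402 to 0.639) in wildtype and 0.831 (0.670 to 1.02) in 3XTg-AD. The lower Cd2 level thus rested mostly on the wildtype library, and its call held in 6 of 13 settings (adjusted p from 0.000304 to 0.758). Its thinned shares in ILC1-like barcodes, 23.3% in wildtype and 24.7% in 3XTg-AD, also had intervals that overlapped those of NK barcodes. Slamf6 had 1 UMI in wildtype and 0 in 3XTg-AD ILC1-like barcodes. It was seen in 0 of 90 and 0 of 73 thinned barcodes, which allows shares of up to 3.33% and 4.11%, so a difference from NK barcodes was not detectable at this depth.

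The adaptors did not pass the test between the classes. Sh2d1a was at 113 CPM (60 UMIs) in wildtype and 65.6 CPM (27 UMIs) in 3XTg-AD ILC1-like barcodes, against 127 and 115 CPM in NK barcodes. Its log2 ratio was -0.23 (SE 0.17, edgeR adjusted p = 0.427), with within-library ratios of 0.892 (0.672 to 1.17) and 0.568 (0.371 to 0.836). Sh2d1b1 was at 56.6 CPM (30 UMIs) and 38.9 CPM (16 UMIs), against 44.0 and 36.7 CPM, with a log2 ratio of 0.44 (SE 0.26, edgeR adjusted p = 0.267). Sh2d1b2 had 10 wildtype UMIs and 1 3XTg-AD UMI in ILC1-like barcodes, too few for the fit at a minimum of 100 UMIs. For Sh2d1a the wildtype interval includes 1 and the 3XTg-AD interval does not, and the difference between them was not tested.

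**Figure D1:**
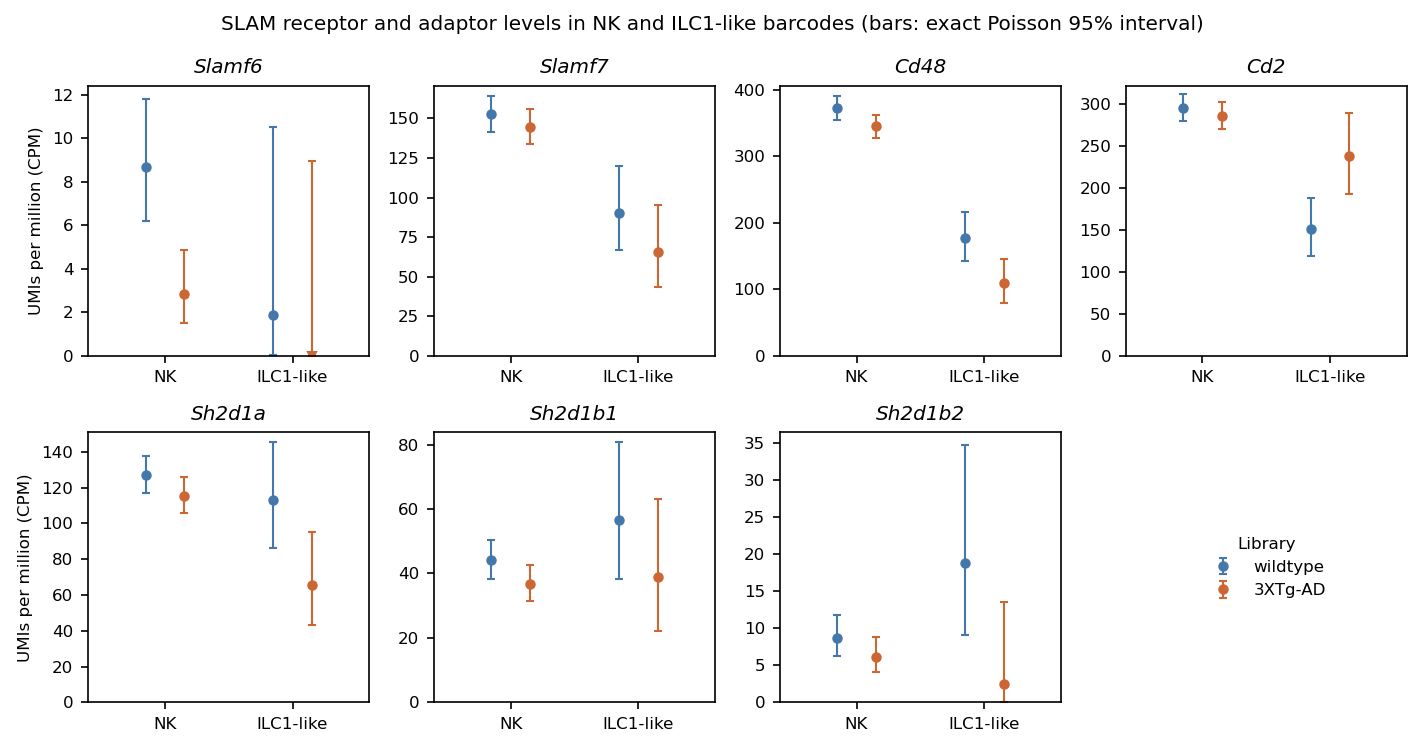
Level of each gene in CPM (vertical axis, from 0, own scale per gene) in NK and ILC1-like barcodes of the wildtype (blue) and 3XTg-AD (orange) library; points are the summed count of 1 library and bars the exact Poisson 95% interval. Cd48 and Slamf7 sit lower in ILC1-like barcodes of both libraries, while Cd2 does so mainly in the wildtype library (151 against 296 CPM) and Sh2d1b1 does not.

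Partners of these genes were read from lists of other SLAM receptors and of SLAM signalling genes. Of the 3 other SLAM receptors measured, 1 was called lower in ILC1-like barcodes and none higher. That gene was Ly9, a receptor that binds itself, at 45.3 and 38.9 CPM in ILC1-like against 79.4 and 79.2 CPM in NK barcodes (log2 ratio -0.71, edgeR adjusted p = 0.0140). Cd244, the receptor for Cd48, had a log2 ratio of 0.02 and was not called. Of 22 signalling genes measured, 5 were higher and 6 lower, beside 9.65% higher and 9.1% lower of all genes. Fyn, the kinase that SAP recruits, was at 81.1 and 48.6 CPM in ILC1-like against 230 and 183 CPM in NK barcodes of the wildtype and 3XTg-AD libraries. The groups did not overlap, and the log2 ratio was -1.47 (edgeR adjusted p = 2.20e-14). Prkcq, a kinase of the protein kinase C family, was at 54.7 and 77.8 CPM against 147 and 152 CPM, and Plcg2, the phospholipase downstream of EAT-2, had a log2 ratio of -0.94. Pstpip1, an adaptor that binds the Cd2 tail, was higher by a log2 ratio of 1.12, Vav3 by 1.11 and Sh3bp2, an adaptor, by 1.06. Plcg2 rested on few UMIs in the ILC1-like sums, with 22 in the wildtype and 6 in the 3XTg-AD library. With DESeq2, of these 7 genes only Fyn and Pstpip1 were called.

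In NK barcodes the 5 SLAM and SAP genes with at least 100 UMIs had 3XTg-AD to wildtype ratios from 0.834 to 0.968. Among all 7183 genes with at least 100 UMIs, 5.87% differed by at least 1.5-fold in CPM, the size taken as a difference here (3.38% higher and 2.49% lower in 3XTg-AD), and 0 of these 5 did, a count that does not set them apart from genes in general. The 3XTg-AD to wildtype ratio was 0.927 for Cd48 (exact 95% interval 0.865 to 0.993), 0.947 for Slamf7 (0.850 to 1.05) and 0.968 for Cd2 (0.896 to 1.04). It was 0.910 for Sh2d1a (0.807 to 1.02) and 0.834 for Sh2d1b1 (0.676 to 1.03). All 5 ratios were under 1, as were 40.1% of all genes, and the median log2 ratio was -0.11 over the 5 genes and 0.05 over all genes. Of the 5 intervals, 4 included 1, and for these no difference between the libraries could be shown beyond counting error. The share of all genes whose interval included 1 was not counted.

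The 2 sparse genes had lower ratios. The Slamf6 ratio was 0.328 (0.161 to 0.625), from 40 wildtype and 13 3XTg-AD UMIs, and at a minimum of 20 UMIs, where 12.3% of 9814 genes passed 1.5-fold, Slamf6 was the only one of the 7 to pass. The cluster led by Emb, Tcf7 and Ctla2a, in which Slamf6 was high, held 198 wildtype and 108 3XTg-AD NK barcodes. Within that cluster Slamf6 was at 31.5 and 21.4 CPM, with overlapping intervals, and in the other NK barcodes it was at 5.45 and 1.41 CPM. Whether the makeup of the libraries accounts for the ratio was not tested. The Sh2d1b2 ratio was 0.706 (0.419 to 1.17). Without the cluster led by the interferon-induced genes Ifit3, Cxcl10 and Ifit1, which held 52 wildtype and 2 3XTg-AD barcodes, the Sh2d1b2 log2 ratio went from -0.50 to 0.13.

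In ILC1-like barcodes, where 5.97% of the 1239 genes with at least 100 UMIs differed by at least 1.5-fold (2.58% higher and 3.39% lower in 3XTg-AD), 2 of the 7 genes had that many UMIs and both differed. Cd2 was higher in the 3XTg-AD library, at 238 against 151 CPM (ratio 1.58, 1.16 to 2.15). Cd48 was lower, at 109 against 177 CPM (ratio 0.617, 0.422 to 0.889). The Sh2d1a ratio was 0.580 (0.354 to 0.927), that of Slamf7 0.724 (0.435 to 1.18), that of Sh2d1b1 0.687 (0.350 to 1.30) and that of Sh2d1b2 0.129 (0.00297 to 0.905), all on fewer than 100 UMIs. Thinned to 1400 UMIs, Cd2 was seen in 23.3% of wildtype and 24.7% of 3XTg-AD ILC1-like barcodes, with overlapping intervals. Genes of the limit itself differed between the libraries, Gzmc standing at 1470 CPM in wildtype and 323 CPM in 3XTg-AD ILC1-like barcodes. With the limit set on Itga1, Cxcr6 and Inpp4b alone, neither Cd2 (log2 ratio 0.41) nor Cd48 (-0.40) passed 1.5-fold, and with the limit counted after thinning Slamf7 turned to a log2 ratio of 0.86.

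**Figure D2:**
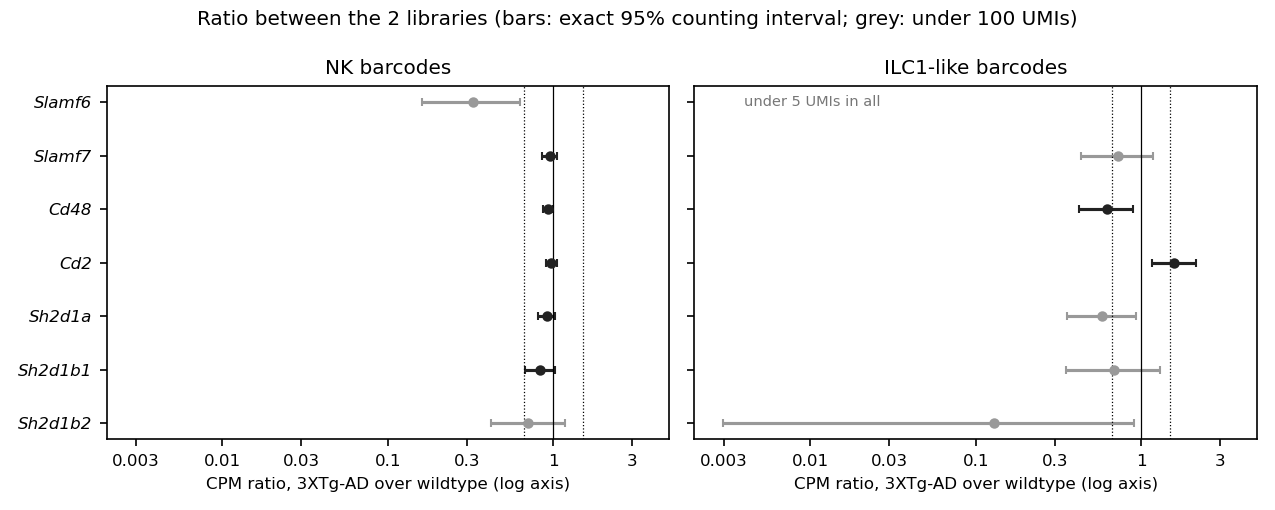
CPM ratio of the 3XTg-AD over the wildtype library for each gene (horizontal log axis) in NK (left) and ILC1-like (right) barcodes; points are the ratio of 1 library to the other, bars the exact 95% counting interval, dotted lines 1.5-fold, and grey marks genes under 100 UMIs over both libraries. In NK barcodes the 5 genes in black lie between 0.834 and 0.968, and in ILC1-like barcodes Cd2 (1.58) and Cd48 (0.617) lie on opposite sides of 1.

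No other SLAM receptor (0 of 3) and no signalling gene (0 of 22) passed 1.5-fold between the libraries in NK barcodes, where 5.87% of all genes did. The Cd244 ratio there was 0.850 and the Fyn ratio 0.796. In ILC1-like barcodes 1 of 7 signalling genes passed, the adaptor Dok2, with a ratio of 0.655, beside 5.97% of all genes. Neither count sets the lists apart from genes in general.

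Mouse NK cells pass from a Cd27-positive stage to a Klrg1-positive stage as they mature, so levels were compared along those 2 genes, called on barcodes thinned to 1400 UMIs. There were 74 wildtype and 59 3XTg-AD barcodes with Cd27 and no Klrg1, 820 and 916 with neither, and 464 and 446 with Klrg1 and no Cd27. The 12 and 6 barcodes with both were kept in the fit and are not described. The stages moved with their marker lists, which include the 2 genes themselves: a list of 10 immature NK genes summed to 3167 and 3721 CPM in Cd27-positive Klrg1-negative and 571 and 855 CPM in Klrg1-positive Cd27-negative barcodes, and a list of 9 mature NK genes to 1338 and 1174 against 4566 and 4500.1 CPM. Barcodes with neither gene include cells of all stages whose UMIs were missed. Between Klrg1-positive Cd27-negative and Cd27-positive Klrg1-negative barcodes, edgeR called 4.41% of 7114 genes (1.59% higher and 2.83% lower). Of the 5 SLAM and SAP genes in the fit 1 was higher and 1 lower, with a median log2 ratio of 0.22 against 0.00 over all genes.

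Cd48 was higher in the Klrg1-positive stage. In the wildtype library it was at 292 CPM (227 to 369) in Cd27-positive Klrg1-negative barcodes, 345 CPM (323 to 368) in barcodes with neither gene and 434 CPM (402 to 468) in Klrg1-positive Cd27-negative barcodes. In the 3XTg-AD library it was at 193 CPM (134 to 268), 328 CPM (307 to 349) and 399.9 CPM (368 to 434). The order of the stages was the same in both libraries, and only the 2 lowest wildtype neighbours overlapped. The log2 ratio of the last over the first stage was 0.74 (SE 0.16, edgeR adjusted p = 0.000139), with within-library ratios of 1.49 (1.16 to 1.93) and 2.07 (1.47 to 3.01).

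Sh2d1a moved in the opposite direction. It was at 179 CPM (130 to 241) in Cd27-positive Klrg1-negative, 127 CPM (114 to 142) in double-negative and 119 CPM (102 to 137) in Klrg1-positive Cd27-negative wildtype barcodes. The 3XTg-AD values were 232 CPM (167 to 313), 111 CPM (99.5 to 124) and 107 CPM (90.6 to 125). The Cd27-positive stage was highest in both libraries, apart from its neighbour's interval only in 3XTg-AD, and the later stages overlapped in both. The log2 ratio was -0.84 (SE 0.20, edgeR adjusted p = 0.00138), with within-library ratios of 0.662 (0.473 to 0.946) and 0.461 (0.326 to 0.665). Neither call held without the library block (adjusted p = 0.121 for Cd48 and 0.0739 for Sh2d1a) or with thinning to 1000 UMIs (0.133 and 0.279). Over 12 settings the adjusted p ran from 4.88e-06 to 0.133 for Cd48 and from 0.000182 to 0.279 for Sh2d1a, whose call was also lost with another random draw of the thinning (0.0809).

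The other genes did not pass the test between stages. Cd2 was at 383, 303 and 262 CPM over the 3 stages in the wildtype and at 287, 283 and 290.5 CPM in the 3XTg-AD library (log2 ratio -0.31, edgeR adjusted p = 0.358). Slamf7 was at 121, 147 and 174 CPM and at 176, 135 and 166 CPM (log2 ratio 0.22, edgeR adjusted p = 0.784). For both genes the libraries differed in the order of the stages. Sh2d1b1 was at 20.8, 52.1 and 33.5 CPM and at 27.6, 37.0 and 35.8 CPM (log2 ratio 0.55, edgeR adjusted p = 0.770), with 5 UMIs in the first stage of each library. Slamf6 had 5, 27 and 5 UMIs (20.8, 10.2 and 3.23 CPM) in the wildtype and 1, 8 and 4 UMIs (5.51, 2.82 and 2.75 CPM) in the 3XTg-AD library. Sh2d1b2 was at 12.5, 10.6 and 5.16 CPM and at 16.5, 4.23 and 6.88 CPM. Slamf6 and Sh2d1b2 were too sparse to order the stages.

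**Figure D3:**
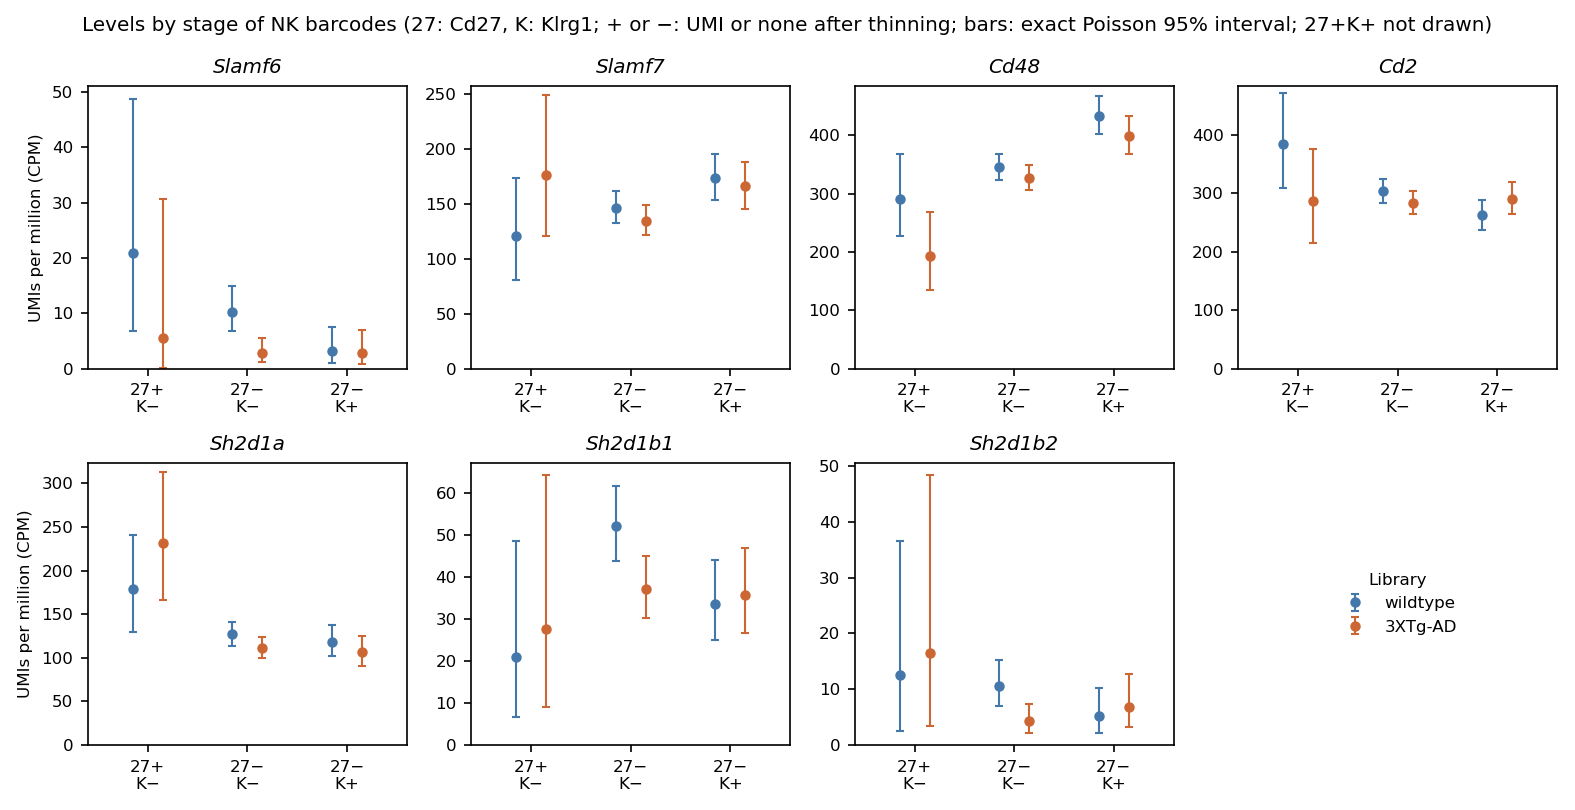
Level of each gene in CPM (vertical axis, from 0, own scale per gene) in NK barcodes by detection of Cd27 (27) and Klrg1 (K) at 1400 UMIs a barcode, in the wildtype (blue) and 3XTg-AD (orange) library; points are the summed count of 1 library, bars the exact Poisson 95% interval, and barcodes with both genes are not drawn. Cd48 is highest and Sh2d1a lowest in the 27-K+ barcodes of both libraries, whereas the 2 libraries order the stages differently for Cd2 and Slamf7.

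Of the partner lists, 1 of 3 other SLAM receptors and 2 of 22 signalling genes were called between the stages, beside 4.41% of all genes. Cd244 was higher in Klrg1-positive Cd27-negative barcodes, at 238 against 133 CPM in the wildtype and 197 against 127 CPM in the 3XTg-AD library (log2 ratio 0.74, edgeR adjusted p = 0.00988). Lat, a scaffold of antigen-receptor signalling, was 1.83 times as high in the wildtype and 1.88 times as high in the 3XTg-AD library (log2 ratio 0.87, edgeR adjusted p = 0.00536). Pstpip1 was lower, at 58.1 against 95.9 CPM and 50.2 against 105 CPM (log2 ratio -0.88, edgeR adjusted p = 0.0475). None of these 3 calls held with DESeq2 (adjusted p = 0.0963 for Cd244, 0.0714 for Lat and 0.371 for Pstpip1). Fyn had a log2 ratio of -0.42 and was not called.

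The number of Klrg1 UMIs gave a finer scale. In wildtype NK barcodes at 1400 UMIs, Cd48 was seen in 40.9% of 894 barcodes with no Klrg1 UMI, 39.9% of 288 with 1, 50.8% of 120 with 2 and 55.9% of 68 with 3 or more. In 3XTg-AD it was seen in 35.7% of 975, 42.6% of 291, 42.7% of 110 and 43.1% of 51. In 3XTg-AD the step lay between 0 and 1 Klrg1 UMI, with flat values after it, and in wildtype between 1 and 2, although the intervals of neighbouring bins overlapped in both libraries. Slamf7 ran from 17.0% to 19.1%, 22.5% and 22.1% in wildtype and from 16.5% to 20.3%, 20% and 23.5% in 3XTg-AD, all within overlapping intervals. Sh2d1a was seen in 15.9%, 18.8%, 12.5% and 10.3% of wildtype and 14.8%, 11.7%, 15.5% and 15.7% of 3XTg-AD barcodes. No order was shared by the libraries for Sh2d1a or for Cd2 on this scale. Slamf6 was seen in 19 of 894 wildtype barcodes without Klrg1 and in 1 of 288, 2 of 120 and 0 of 68 with 1, 2 and 3 or more UMIs. In 3XTg-AD it was seen in 6 of 975, 1 of 291, 1 of 110 and 0 of 51, too few to order the bins.

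**Figure D4:**
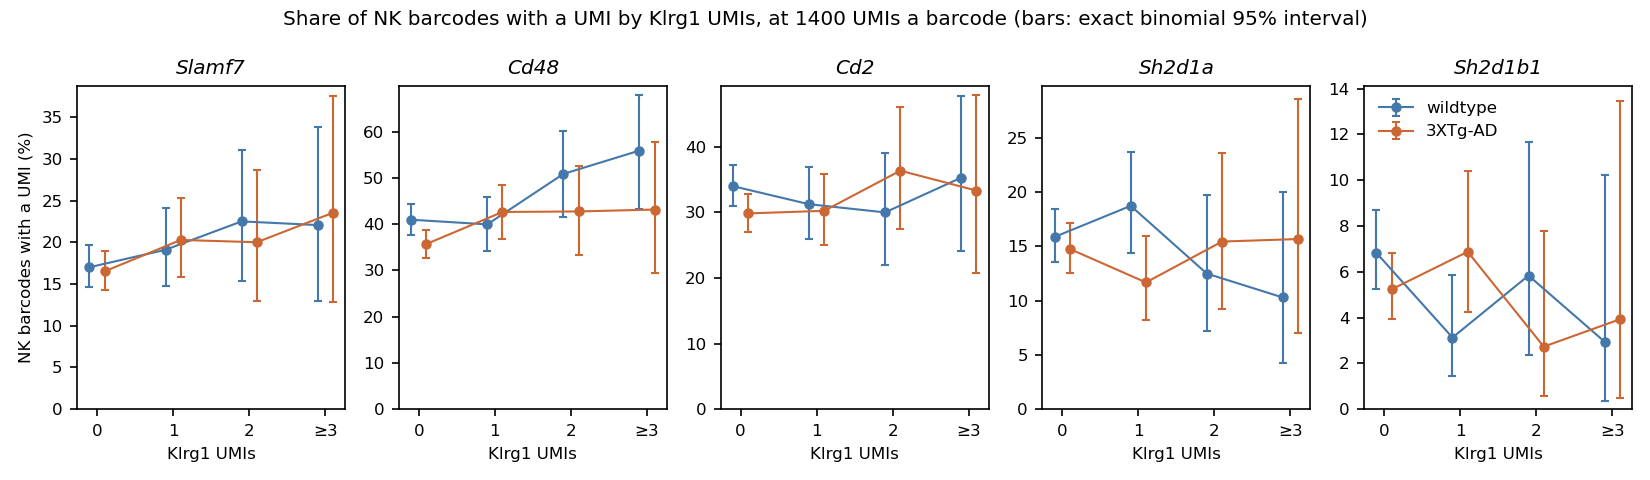
Share of NK barcodes with a UMI of each gene (vertical axis, percent, from 0) by the number of Klrg1 UMIs (horizontal axis) after thinning to 1400 UMIs, in the wildtype (blue) and 3XTg-AD (orange) library; bars are exact binomial 95% intervals. The Cd48 share runs from 40.9% to 55.9% in wildtype and from 35.7% to 43.1% in 3XTg-AD, while Cd2 and Sh2d1a show no shared order.

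Levels over the Leiden clusters of NK barcodes are a description, since the clusters were drawn from all genes of the same cells. In the cluster led by Emb, Tcf7 and Ctla2a, whose leading genes include the immature markers Cd27, Ltb and Thy1, Slamf6 had 18 of 40 wildtype UMIs (45.0%) in 13.3% of the NK barcodes. In 3XTg-AD it had 7 of 13 UMIs (53.8%) in 7.14% of the barcodes. The UMIs came from 16 and 7 barcodes, so no single barcode supplied them. Sh2d1a was at 216 and 220 CPM in that cluster against 114 and 107 CPM in the other NK barcodes of the 2 libraries, and Cd2 at 494 and 403 CPM against 268 and 277 CPM. Cd48 was at 256 and 226 CPM there against 389 and 355 CPM. Slamf7 was at 70.1 against 164 CPM in wildtype and at 122 against 146 CPM in 3XTg-AD. Against the other NK barcodes pooled, that cluster was thus high in Slamf6, Sh2d1a and Cd2 and low in Cd48 in both libraries. Single clusters came near it in wildtype. In the cluster led by Gm43647, Klra8 and Klra4, Cd2 was at 471 CPM in wildtype and 340 CPM in 3XTg-AD. Sh2d1a there was at 208 and 126 CPM. Slamf6 reached 40.7 CPM on 8 UMIs in the 55 wildtype NK barcodes of the cluster led by Gzmc, Inpp4b and Tsc22d1, where Cd48 was at 148 CPM. The Gzmc-led cluster also held 64 of the 93 wildtype ILC1-like barcodes.

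The heat-shock-led cluster showed the reverse pattern for 3 of these genes. Cd48 was at 602 CPM in its wildtype and 469 CPM in its 3XTg-AD barcodes. Cd2 was at 163 and 221 CPM and Sh2d1a at 74.0 and 84.2 CPM there. In the wildtype cluster led by Gzmb, Gadd45g and Socs1, with 283 barcodes, Cd48 was at 477 CPM, Slamf7 at 233 CPM, Cd2 at 197 CPM and Sh2d1a at 87.9 CPM. These 2 clusters take very different shares of the 2 libraries, and their part in the ratios between the libraries was not tested. The cluster led by Klrg1, Cma1 and Stmn1 had Cd48 at 357 CPM in wildtype and 301 CPM in 3XTg-AD. All NK barcodes together had 372 and 345 CPM. Sh2d1a was at 116 and 124 CPM in the Klrg1-led cluster and 127 and 115 CPM in all NK barcodes. These intervals overlapped for both genes in both libraries. Beside the Emb-led cluster, the Klrg1-led cluster was higher in Cd48 and lower in Sh2d1a in both libraries. In the interferon-led cluster of 52 wildtype barcodes, Sh2d1b2 had 15 of its 40 wildtype NK UMIs (37.5%), from 10 barcodes, at 101 CPM against 5.60 CPM elsewhere. Sh2d1b1 there had 20 UMIs from 17 barcodes, at 135 CPM against 41.0 CPM elsewhere. Since the split of UMIs between these copies is uncertain, the values do not show that each was high on its own. Cd48 was at 182 CPM and Klrg1 at 47.3 CPM in that cluster.

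**Figure D5:**
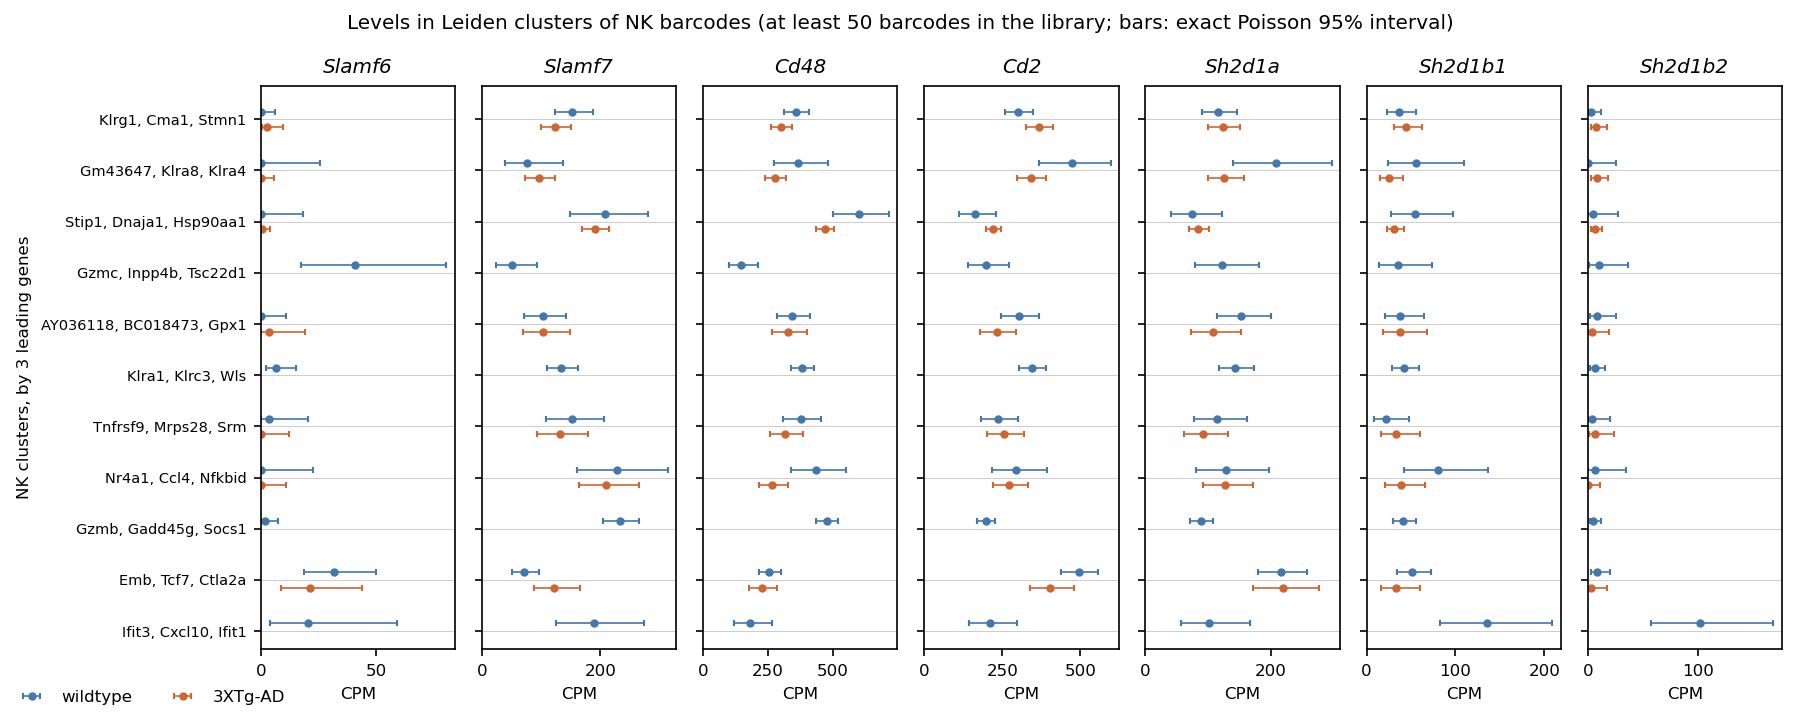
Level of each gene in CPM (horizontal axes, from 0, own scale per gene) in Leiden clusters of NK barcodes, named by their 3 leading genes, in the wildtype (blue) and 3XTg-AD (orange) library; points are summed counts of clusters with at least 50 barcodes in that library and bars exact Poisson 95% intervals. Slamf6, Cd2 and Sh2d1a are high in the Emb, Tcf7, Ctla2a row, Cd48 is highest in the Stip1, Dnaja1, Hsp90aa1 row, and the wildtype points of the Sh2d1b1 and Sh2d1b2 copies are highest in the Ifit3, Cxcl10, Ifit1 row.

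The genes most like each of the 5 measured genes were taken by Pearson's r of log2(CPM + 5) over 10 sums, the 4 NK stages and the ILC1-like class in each library, among 5528 genes with at least 200 UMIs. For Slamf7 these were Nr4a1 (r = 0.946), Uap1 and Ccl3, and for Cd48 they were AW112010 (r = 0.967), Myl12b and Hist1h1c. For Cd2 they were Snap29 (r = 0.993), Hccs and Nt5c, for Sh2d1a Chmp1b (r = 0.947), Tbc1d1 and Mxd1, and for Sh2d1b1 Trnau1ap (r = 0.932), Ssbp1 and Kif2a. The sums share libraries and differ in depth. Without the 2 small sums of barcodes with both Cd27 and Klrg1, 1 of the 3 genes was shared for Cd48 (AW112010), Cd2 (Snap29) and Sh2d1b1 (Trnau1ap) and 0 of 3 for Slamf7 and Sh2d1a.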

How the data were processed

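The authors deposited 1 matrix of raw UMI counts per library, made with Cell Ranger 3.1.0, which uses STAR, on mm10, per the submitters' processing notes; the matrix header names software 3.0.2. The sources do not name the annotation release behind the matrices. The 7 genes, the lists and the tests were chosen with earlier results of these data known. Barcodes with at least 300 genes, at most 10% mitochondrial UMIs and no Scrublet doublet call (13 in the wildtype and 22 in the 3XTg-AD library) were kept, 1649 and 1663, and those gated as T cell, microglia or another type were left out. Clusters came from scanpy 1.11.5 (10000-UMI normalisation, 2000 variable genes, 30 components, 15 neighbours, resolution 1). Intervals are exact Poisson for CPM, Clopper-Pearson for shares and conditional binomial for ratios, at 95%. Limits for a count of 0 use 3 counts. Intervals and limits cover counting error only. Class and stage sums were tested with edgeR 4.0.16 (TMM, quasi-likelihood, genes with at least 100 UMIs, Benjamini-Hochberg, library as a block because classes and stages come from the same libraries), and with DESeq2 1.42.0 as an alternative. In simulated counts, the class fit on 7410 genes called 38.8% of 2-fold and 87.6% of 4-fold changes, and the stage fit on 7114 genes called 22.5% and 73.5%. Of unchanged genes, the class fit called 0.0277% and the stage fit 0.0289%. The simulated counts had the same fixed spread for every gene and no difference between libraries. That spread was not fitted to the real counts, so these rates need not hold for them. All 7 genes are named, and of each list the called genes, up to 6 by size of the log2 ratio; uncalled list genes given with values (Cd244, Fyn) were chosen after their values were seen.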

Additional observations from a re-analysis of the deposited data

Results flagged for a closer look

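The following 4 contrasts had point estimates of opposite sign in the 2 groups they were measured in. None of these differences was tested, since each rests on 1 library per group. In each contrast the exact interval of at least 1 of the 2 ratios included a ratio of 1. For Sh2d1b2 between classes and Slamf7 between stages, both intervals did, so a reversal is not shown. The Cd2 log2 ratio of 3XTg-AD over wildtype was -0.048 in NK and 0.66 in ILC1-like barcodes. The Sh2d1b2 log2 ratio of ILC1-like over NK barcodes was 1.12 in the wildtype library, on 10 ILC1-like UMIs, and -1.33 in the 3XTg-AD library, on 1. Between Klrg1-positive Cd27-negative and Cd27-positive Klrg1-negative barcodes the Slamf7 log2 ratio was 0.52 in wildtype and -0.089 in 3XTg-AD, and the Cd2 log2 ratio was -0.55 and 0.019. The exact intervals of the Cd2 ratios between libraries in NK (0.896 to 1.04) and ILC1-like barcodes (1.16 to 2.15) did not overlap. The exact intervals of the wildtype and 3XTg-AD ratios overlapped for Sh2d1b2 between classes and for Slamf7 and Cd2 between stages. Between classes, the Cd2 ratio was under 1 in both libraries. Its intervals there did not overlap (0.402 to 0.639 in wildtype and 0.670 to 1.02 in 3XTg-AD).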

How the results depend on the processing

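No paired analysis was possible between genotypes because each has 1 library. In NK barcodes the count of SLAM and SAP genes past 1.5-fold went from 0 to 1 (Slamf6) at a minimum of 20 UMIs. In ILC1-like barcodes it went from 2 to 1 with the limit at 2 or at 4 summed UMIs or taken from clusters (an alternative chosen after seeing the data), and to 0 with the limit counted after thinning or set on 3 genes. Between classes the 3 calls fell to 1 with the limit at 4 UMIs, with the limit counted after thinning and with DESeq2. Between stages the 2 calls fell to 0 without the replicate block (2 of 5 at an unadjusted p under 0.05) and at 1000 UMIs (3 of 5), and to 1 with another random draw, chosen after seeing the data; DESeq2 called 2. The cause of these changes was not tested. Leaving out a library leaves a value with no test: the class log2 ratio then ran from -1.66 to -1.07 for Cd48, -1.14 to -0.75 for Slamf7, -0.97 to -0.27 for Cd2, -0.82 to -0.16 for Sh2d1a and 0.08 to 0.36 for Sh2d1b1. The stage log2 ratio ran from 0.57 to 1.05 for Cd48, -1.12 to -0.59 for Sh2d1a, -0.089 to 0.52 for Slamf7, -0.55 to 0.019 for Cd2 and 0.38 to 0.69 for Sh2d1b1. Sh2d1b1 turned to -0.13 with stages called without thinning and -0.26 with the other draw. Over all genes, calls between classes numbered 1389, and 464 with the thinned limit, 372 with DESeq2 (65.3% higher against 51.5%), 809 without the replicate block, 995 with 5 classes in the fit (66.0% higher) and 1595 with no scaling factor (29.4% higher, median log2 ratio -0.20). Calls between stages numbered 314, and 55 without the replicate block, 171 with DESeq2, 105 at 1000 UMIs, 485 unthinned and 203 with the other draw. Depth limits Slamf6 and Sh2d1b2 throughout, and every gene in ILC1-like barcodes.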
